A study of Homo sapiens with 8 samples.

Results

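The chromatin around 9 genes that hold or mark epithelial identity was followed through TGFβ1 treatment: the grainyhead-like factors GRHL1, GRHL2 and GRHL3, the zinc finger repressors OVOL1 and OVOL2, the splicing regulators ESRP1, ESRP2 and RBM47, and the surface adhesion molecule EPCAM. The genes were given by name, and their regions were found by position alone. The 4 peak lists of the series were merged wherever peaks shared at least 1 bp, which gave 126658 regions. Of these, 165 overlapped the body of 1 of the 9 genes in GENCODE or the 50 kb on either side of it, and no region fell to more than 1 gene.

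MCF10A cells, an established line of immortalized and non-tumorigenic human mammary epithelial cells of wild-type genotype, had received solvent (BSA in PBS) or 5 ng/ml recombinant human TGFβ1 for 6, 24 or 72 h. Every group grew in the same medium with horse serum, EGF, hydrocortisone, cholera toxin and insulin. ATAC-seq, an assay that uses a transposase to tag open DNA, was performed on 8 libraries, 2 replicates per condition. The labels place the solvent samples at 0 h, whereas by the study's text solvent was given for as long as the longest TGFβ1 treatment and every dish was harvested equally long after plating.

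Grainyhead-like factors bind the regulatory DNA of junction and adhesion genes and keep it accessible in epithelia. OVOL factors repress the transcription factors that drive epithelial-mesenchymal transition (EMT), while ESRP1 and ESRP2 impose the epithelial splicing pattern on transcripts such as those of FGFR2 and CD44. TGFβ is a classical inducer of EMT in mammary epithelial cells, during which such genes are known to be turned down.

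The authors had called 1 peak list per condition from both replicates together. The files therefore hold no value per replicate, no difference below could be tested, and none has a replicate check. The value followed here is the deposited AUC of a peak, the area under its significance curve above the caller's threshold, which rises with read depth and with peak width and was at least 200 in every list. The median AUC ratio to solvent at regions within 3 kb of a transcriptional start site (TSS) was 0.44, 0.38 and 0.25 on the log2 scale after 6, 24 and 72 h. These shifts were subtracted, so every scaled log2 ratio below is relative to the typical TSS region of its own list. A region was called up or down past 1.5-fold, gained when the solvent list held no peak there, and lost when the TGFβ1 list held none. From here on, values under TGFβ1 are listed in the order 6, 24 and 72 h, and "none" stands for a list with no peak. A gained or lost region may hold signal below the threshold in the list where it is missing. As a check of the cell type, a peak covered a TSS of 8 of 8 epithelial marker genes in every list, and of 1 of 8 marker genes of other cell types (GFAP, an astrocyte filament gene).

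Most regions around the 9 genes already held a peak before treatment, though no region lay at the canonical TSS of GRHL2 or OVOL1. The nearest regions were 8864 bp and 5167 bp away. The solvent list held a peak in 130 of the 165 regions, and the TGFβ1 lists in 153, 151 and 144. A peak stood in all 4 lists in 122 regions, which is 73.9% of them, compared with 62.6% of all merged regions. A peak in every TGFβ1 list and none in solvent was found in 15 regions (9.09%, against 14.3% over the series). GRHL3 held the most regions with 46, followed by RBM47 with 26, GRHL2 with 23, EPCAM with 15, OVOL2 and ESRP1 with 14 each, GRHL1 and ESRP2 with 11 each, and OVOL1 with 5. Of the 165 regions, 25 lay within 3 kb of a TSS of their own gene, 47 within 3 kb of a TSS of another gene, 58 elsewhere in the gene and 35 elsewhere in the flanks.

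Over all regions, a smaller share was called up around these genes than over the series, and at 72 h a larger share was called down. Differences between these shares were not tested. At 6 h, 10 of 128 regions with a peak in both lists were up (7.81%) and 0 were down (Wilson upper bound 2.91%), against 11.7% up and 1.4% down among all merged regions. At 24 h, 12 of 125 were up (9.60%) and 4 down (3.20%), against 20.3% and 3.22%. At 72 h, 16 of 122 were up (13.1%) and 9 down (7.38%), against 22.9% and 3.9%. The shares called down thus stood close to that of the series at 24 h and above it at 72 h, while the pooled shares called up stood below it at each time. The 95% Wilson interval of the share up was 4.30% to 13.8% at 6 h, 5.58% to 16.0% at 24 h and 8.24% to 20.2% at 72 h. The 95% Wilson interval of the share down at 72 h ran from 3.93% to 13.4%. These intervals cover counting error only and treat regions as independent, which neighbouring regions of the same gene are not. They are therefore no test against the series. Without scaling, 33 regions were up and 8 down at 72 h, and with scaling by all shared regions 11 were up and 13 down, so which direction led depends on the scale. On the −log10 p at the summit in place of the AUC, 0 regions passed 1.5-fold in either direction at any time. That value is itself a logarithm, so 1.5-fold of it is a stricter limit and the 0 cannot decide on the AUC calls. The region with the highest AUC ratio at 72 h (1.92, around GRHL3) went from 5.93 to 9.09 on it. The order also depends on place, since 72 of the 165 regions lay within 3 kb of a TSS of any gene (43524 of 126658 over the series). There the shares up were 10.5%, 10.9% and 11.1%, against 7.49%, 12.6% and 13.4% over the series, so at 6 h the order was the opposite. Among the other 93 regions, which are distal, they were 5.63%, 8.57% and 14.7%, against 14.5%, 25.5% and 29.3%. The share down at 72 h was 9.26% near TSSs and 5.88% in distal regions, against 3.75% and 4.0%. The median scaled log2 ratio over the regions was 0.036, 0.039 and 0.063, against 0.064, 0.12 and 0.15 over the series.

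Gained regions outnumbered lost regions in each comparison. Around the 9 genes 25 of 155 regions were gained at 6 h (16.1%), 26 of 156 at 24 h (16.7%) and 22 of 152 at 72 h (14.5%), against 22.9%, 29.8% and 29.3% over the series. Lost were 2 (1.29%), 5 (3.21%) and 8 (5.26%), against 0.551%, 1.31% and 2.43%. The TGFβ1 lists are longer than the solvent list, at 107656, 118433 and 116720 peaks against 86209. When each list was cut to the 86209 peaks of largest AUC, 5 regions were gained and 22 lost at 72 h (3.70% and 16.3% of 135), while 13.8% and 11.6% were gained and lost over the series. The order of gains and losses around these genes therefore depends on list length.

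The kinds of call ran differently over time. Regions called up were 10, 12 and 16, those called down 0, 4 and 9 and those lost 2, 5 and 8, while the gained regions stayed level at 25, 26 and 22. The shares over the series rose as well, to 11.7%, 20.3% and 22.9% up, and 1.4%, 3.22% and 3.9% down. Lost there were 0.551%, 1.31% and 2.43%, and gained 22.9%, 29.8% and 29.3%. Every comparison uses the same solvent list, so an error in that list would recur at each time.

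The calls went with changes in peak width. All 16 regions up at 72 h were covered by more bases than in solvent, and all 9 regions down by fewer. The same held over the series, where 93.5% of the regions down at 72 h and 0.39% of those up were covered by fewer bases. Per covered base, 12 of the 16 regions up were above 0 and 9 past 1.5-fold, and 6 of the 9 regions down were below 0 and 3 past 1.5-fold, those 3 around GRHL1 and GRHL3. Among all merged regions up at 72 h 86.6% were above 0 per covered base, and among those down 90.5% were below 0.

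**Figure D1:**
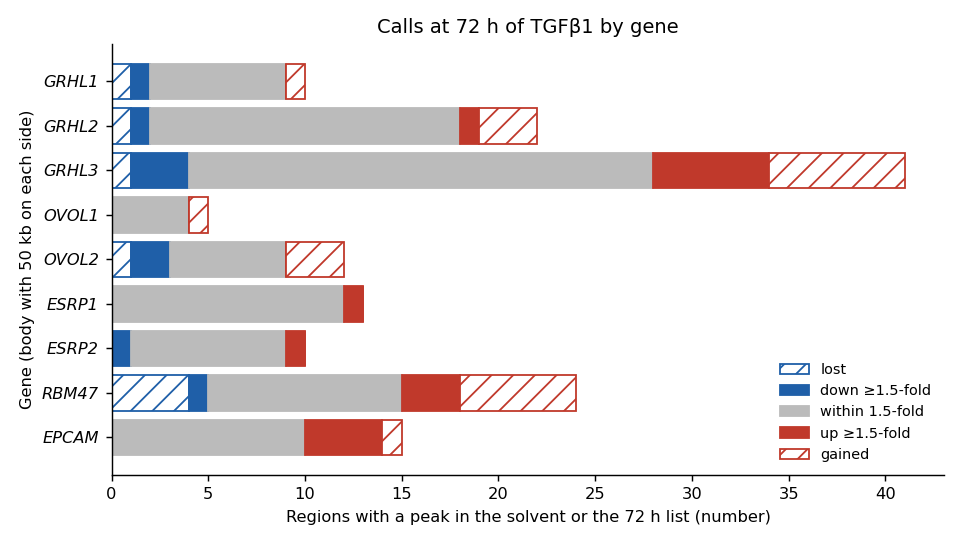
Number of regions (x axis) by gene (y axis) with a peak in the solvent or the 72 h list, split by call at 72 h. Solid red is up and hatched red gained, solid blue is down and hatched blue lost, and grey is within 1.5-fold. GRHL3 and RBM47 carried the most calls, EPCAM had 5 up or gained and 0 down or lost, and OVOL1 had a single call.

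Calls in both directions were found at most genes, and differences between genes were not tested. Over all 9 genes 38 of the 165 regions were up or gained at 72 h and 17 down or lost, against 52477 and 5942 of all 126658 merged regions. GRHL3 had 13 up or gained and 4 down or lost, and RBM47 had 9 and 5. EPCAM had 5 up or gained and none down or lost, while OVOL2 had 3 and 3. Regions within 3 kb of a gene's own TSS included 0 that were up and 2 that were down at 72 h, with 2 gained and 2 lost, and 13 of the 18 with a peak in both lists were below 0. Among all merged regions within 3 kb of any TSS, 13.4% were up, 3.75% down and 2.52% lost, and the scaling sets their median to 0. Regions elsewhere in the gene included 8 up, 3 down, 12 gained and 4 lost. Among all distal regions of the series, 29.3% were up, 4.0% down and 2.38% lost. Gained at 72 h were 17.0% of the distal regions and 10.9% of those within 3 kb of any TSS, against 35.4% and 17.8% over the series.

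**Figure D2:**
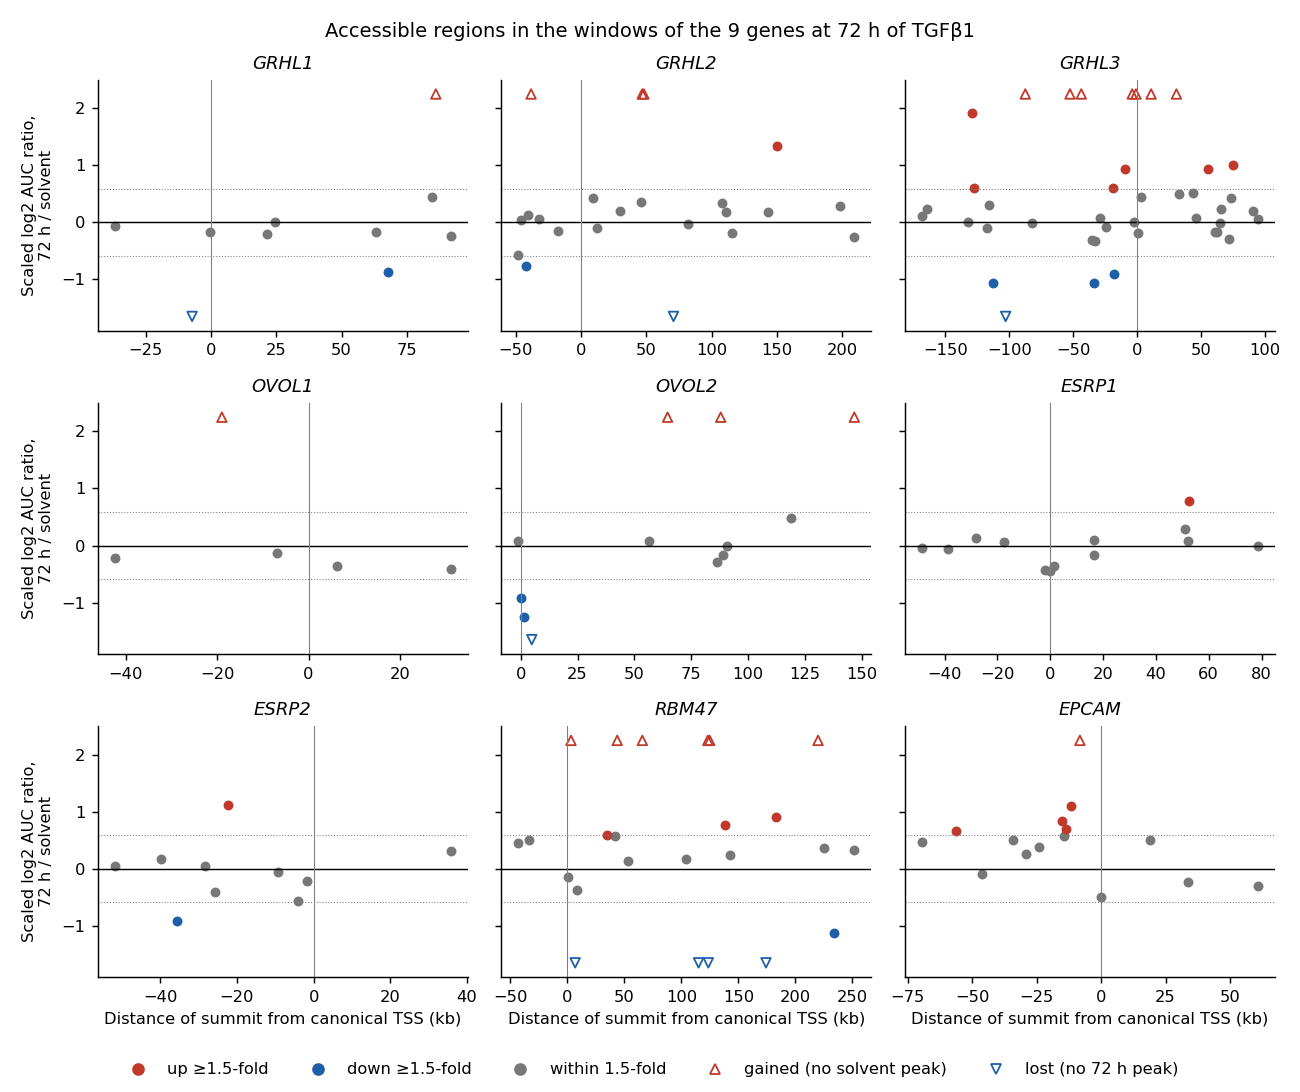
Scaled log2 AUC ratio of 72 h to solvent (y axis) against the distance of the region's summit from the canonical TSS in the direction of transcription (x axis, kb), 1 panel per gene. Dotted lines mark 1.5-fold, triangles at the upper and lower edges mark gained and lost regions, which have no ratio. Blue points and a blue triangle cluster at the OVOL2 TSS, and red points upstream of EPCAM.

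At the promoters themselves, 8 of 9 genes stood below 0 at 72 h and 1, OVOL2, was called down. Each gene's promoter region is the merged region over one of its TSSs with the largest solvent AUC, or for GRHL2 the nearest within 3 kb. None of the 9 was called up at any time and none down at 6 h or 24 h. Among the promoter regions of all protein-coding genes, 2.78% were up and 0.411% down at 6 h, 4.29% and 1.04% at 24 h, and 3.98% and 1.47% at 72 h. Promoter regions in general sat slightly below 0, with a median of -0.075 and an interquartile range of -0.16 to 0.040 at 72 h, and 68.2% of them below 0. The median over the 9 genes was -0.10, -0.15 and -0.21. The direction rests on the scaling for part of them: as deposited, the AUC at 72 h was above solvent at the promoters of GRHL1, GRHL2, GRHL3, ESRP2 and RBM47, and below it at those of OVOL1, OVOL2, ESRP1 and EPCAM.

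The grainyhead-like genes kept their promoter signal. At the GRHL1 promoter (chr2:9950932-9952074) the AUC was 3289.6 in solvent, then 4067, 3975 and 3453, and the scaled log2 ratio was -0.14, -0.11 and -0.18. At the GRHL3 promoter (chr1:24319202-24320115) the AUC was 2809 in solvent, then 3414, 3305 and 2926, with ratios of -0.16, -0.15 and -0.19. In both, the deposited AUC was highest at 6 h and came back near the solvent level. The shift of the whole list was also largest at 6 h, and after scaling neither promoter was highest then. No region lay at the canonical TSS of GRHL2, the member best known for opening epithelial enhancers. The nearest region was 8864 bp away, and the promoter region of the rule was an internal one (chr8:101635371-101636290, 480 bp from a shorter transcript's TSS) with an AUC of 1825 in solvent, then 2699, 2504 and 2466. Its ratios were 0.12, 0.076 and 0.19, the only promoter of the 9 above 0 at 72 h, although per covered base it was at -0.075.

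GRHL2 showed its largest increases away from the promoter. An intronic region 150 kb downstream of the canonical TSS (chr8:101642353-101642649) had an AUC of 314 in solvent, then 788, 952 and 942, with ratios of 0.88, 1.22 and 1.34. A region at chr8:101453848-101454406, 38.3 kb upstream and near the TSS of a non-coding gene, was gained with an AUC of none in solvent, then 815, 1413 and 1667. The lowest ratio at 72 h, -0.77 and 0.11 per covered base, belonged to a region 42.1 kb upstream (chr8:101450210-101450761), at 741 in solvent, then 759.7, 652 and 516.

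Around GRHL1 the region called down at 72 h was at chr2:10019205-10019534, 67.7 kb downstream of its TSS, with an AUC of 756 in solvent, then 780.2, 641 and 488. A weak region 7219 bp upstream of GRHL1 was lost from 24 h on, with an AUC of 296 in solvent, then 274, none and none. Its AUC lay close to the threshold in both lists that held it.

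Inside the windows of these factors, intronic and flanking regions moved both ways. In the long intron upstream of the canonical GRHL3 TSS, a region at chr1:24266344-24267006 was gained early and grew, with an AUC of none in solvent, then 793, 1669 and 1634. Another intronic region, at chr1:24284954-24285724, closed, with an AUC of 1057 in solvent, then 1384, 950.3 and 602 and ratios of -0.052, -0.53 and -1.06. The region chr1:24309731-24310178, 9401 bp upstream of the canonical TSS, was up from 6 h on, with an AUC of 906 in solvent, then 2049.6, 2341 and 2049.5. Regions that opened and regions that closed thus lay in the same transcription unit. The highest ratio around GRHL3, 1.92 at 72 h, belonged to a region 2123 bp from a TSS of IFNLR1, an interferon receptor gene, with an AUC of 265 in solvent, then 769, 1121 and 1193. For the 2 regions in the GRHL3 introns the summit windows are shown because the first was gained and the second closed. Windows of 201 bp around the summit come from GRCh38, plus strand, with capitals for a match to a motif searched, of which these 2 hold none.
GRHL3 gained, chr1:24266749-24266949: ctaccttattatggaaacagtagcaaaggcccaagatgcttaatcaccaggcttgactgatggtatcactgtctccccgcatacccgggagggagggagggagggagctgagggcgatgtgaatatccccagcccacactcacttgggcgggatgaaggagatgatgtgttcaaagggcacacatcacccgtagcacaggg
GRHL3 down, chr1:24285281-24285481: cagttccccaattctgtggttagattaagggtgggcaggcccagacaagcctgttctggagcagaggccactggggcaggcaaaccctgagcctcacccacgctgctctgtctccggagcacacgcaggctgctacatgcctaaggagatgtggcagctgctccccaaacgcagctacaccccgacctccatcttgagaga

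Around the OVOL2 TSS the AUC fell late in the treatment, as the peaks became narrower. The promoter region (chr20:18057111-18058035) had an AUC of 670.5 in solvent, then 928, 891 and 419, and scaled ratios of 0.028, 0.030 and -0.92. Only 0.46% of the promoter regions of protein-coding genes had a lower ratio at 72 h. The intronic region 1355 bp downstream (chr20:18056304-18056960) had an AUC of 475 in solvent, then 529, 279 and 237, with ratios of -0.29, -1.15 and -1.25. The region 4841 bp downstream (chr20:18052888-18053208) had an AUC of 638 in solvent, then 680.3, none and none. These 3 neighbouring regions stayed within 1.5-fold at 6 h. At 24 h the region 1355 bp downstream was called down, at -0.18 per covered base, and the region 4841 bp downstream was lost. The promoter region was called down at 72 h only. The fourth region near an OVOL2 TSS, 1173 bp upstream (chr20:18058917-18059354), stayed, with an AUC of 438 in solvent, then 728, 529 and 551. All 4 were weak, since the median AUC in the solvent list was 725. The change at the promoter region was in width, since the peaks covered 658 bp in solvent, as 2 peaks, and 348 bp at 72 h, while the AUC per covered base was 1.02 and 1.21. On that scale the ratio at 72 h was 0.066, in the opposite direction. The region 1355 bp downstream narrowed likewise, from 580 bp to 162 bp, while its AUC per covered base was 0.82 in solvent and 1.46 at 72 h, a ratio of 0.66 and past 1.5-fold up. At these 2 of the 3 regions the call therefore rests on width. Further regions of the OVOL2 window, over 50 kb downstream, included 3 that were gained.

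The summit windows of the 2 downstream OVOL2 regions are shown because they were the first to be called down or lost. The former holds the E-box at 2 positions, in capitals as CAGGTG, the opposite strand of CACCTG, which ZEB and SNAIL repressors are known to bind. The latter holds none of the motifs searched.
OVOL2 +1355 bp, chr20:18056461-18056661: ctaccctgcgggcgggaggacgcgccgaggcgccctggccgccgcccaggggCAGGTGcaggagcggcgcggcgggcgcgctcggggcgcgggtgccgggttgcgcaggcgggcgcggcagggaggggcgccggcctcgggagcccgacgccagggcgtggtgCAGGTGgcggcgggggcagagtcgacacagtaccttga
OVOL2 +4841 bp, chr20:18052975-18053175: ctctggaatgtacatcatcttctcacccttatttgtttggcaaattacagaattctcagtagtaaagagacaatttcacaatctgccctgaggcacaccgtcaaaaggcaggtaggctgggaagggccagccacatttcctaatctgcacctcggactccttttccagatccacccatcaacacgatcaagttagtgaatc

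OVOL1 also ended below solvent, but within 1.5-fold. No region lay nearer than 5167 bp to its canonical TSS. At a region over an alternative TSS 6211 bp downstream (chr11:65792230-65793870) the AUC was 2822 in solvent, then 4492, 3663 and 2614, with ratios of 0.23, -0.0033 and -0.36. The deposited AUC was highest at 6 h and below solvent at 72 h. All 4 OVOL1 regions with a peak in both lists were below 0 at 72 h, between -0.40 and -0.14. Of these, 2 lay within 3 kb of TSSs of other genes, 1 of them over a TSS of AP5B1. A single weak region 19.0 kb upstream was gained, with an AUC of none in solvent, then 205, 234 and 258.

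Of the splicing regulators, ESRP1 had the lowest promoter ratio at 72 h. At the ESRP1 promoter (chr8:94640093-94641734) the AUC was 3909.7 in solvent, then 5069, 3786 and 3396, with ratios of -0.067, -0.43 and -0.45. At 72 h 2.66% of all promoter regions were lower. The regions on both sides of it went the same way: 1925 bp upstream the AUC was 1720.0 in solvent, then 2376, 1624 and 1521, and 1313 bp downstream it was 1169.8 in solvent, then 1329.7, 1200.0 and 1088. All 3 thus ended below solvent, within 1.5-fold of it. In contrast, an intronic region 52.6 kb downstream of the ESRP1 TSS opened, with an AUC of 393 in solvent, then 800.2, 866 and 802 and ratios of 0.58, 0.76 and 0.78.

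ESRP2 lies among closely spaced genes, and 9 of its 11 regions lay within 3 kb of TSSs of others. Its own broad promoter region (chr16:68234816-68238166) had the largest AUC of the 9 promoters, 9427 in solvent, then 11943, 10609 and 9688, with ratios of -0.10, -0.21 and -0.21. At 72 h this region was split into 2 peaks, and the larger one alone gave a ratio of -1.20. A weaker region 3981 bp upstream, within 3 kb of another ESRP2 TSS, had an AUC of 443 in solvent, then 535, 521 and 357, just inside the threshold at -0.56. The region called up in the window (chr16:68258029-68258539, 1.11 at 72 h) and the region called down (chr16:68271562-68271911, -0.91) lay near TSSs of a non-coding gene and of the amino acid transporter gene SLC7A6. Per covered base the region called up was at 0.83 and the region called down at -0.12, within 1.5-fold.

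RBM47, an RNA-binding protein with roles in splicing and RNA editing, stayed within 1.5-fold at its promoter while many regions in its long introns were exchanged. The promoter region (chr4:40628996-40630010) had an AUC of 2621 in solvent, then 3246, 2804 and 2828, with ratios of -0.13, -0.28 and -0.14. Inside the gene, 123 kb downstream of the TSS, a region at chr4:40506485-40506940 was gained, with an AUC of none in solvent, then 694, 1053 and 968. The region chr4:40446673-40447225 had an AUC of 587 in solvent, then 1542, 1539 and 1314 and was up at each time, at 0.95, 1.01 and 0.91. The region chr4:40455587-40455793 was lost at 72 h only, with an AUC of 423 in solvent, then 451, 410.0 and none. Beyond the 3′ end of the gene, chr4:40395866-40396370 fell step by step, with an AUC of 1089.8 in solvent, then 1036, 702 and 595 and ratios of -0.51, -1.01 and -1.12. Its peak narrowed from 505 bp in solvent to 290 bp at 72 h. Per covered base the ratio was -0.050 at 24 h and -0.25 at 72 h, within 1.5-fold. A region 3118 bp downstream of the TSS was open mainly at 6 h, with an AUC of none in solvent, then 778, 285 and 215. Of the 14 RBM47 regions with a peak in both lists at 72 h, 3 were below 0, while the median over the series was 0.15 and in its distal regions 0.27.

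The summit windows of the gained region and of the region that fell are shown because they hold different motifs. The gained window holds 2 AP-1 motifs (TGANTCA) and the grainyhead motif AACCNGTT between them, and the falling window an E-box, all in capitals.
RBM47 gained, chr4:40506618-40506818: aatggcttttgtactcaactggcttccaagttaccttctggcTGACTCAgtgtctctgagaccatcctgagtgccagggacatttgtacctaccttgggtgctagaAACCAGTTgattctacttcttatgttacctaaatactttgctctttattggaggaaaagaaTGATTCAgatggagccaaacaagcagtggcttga
RBM47 down, chr4:40395848-40396048: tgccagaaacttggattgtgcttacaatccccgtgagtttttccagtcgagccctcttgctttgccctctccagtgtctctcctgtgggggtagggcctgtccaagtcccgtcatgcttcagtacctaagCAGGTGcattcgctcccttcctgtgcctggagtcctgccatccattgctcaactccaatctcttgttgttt

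EPCAM showed opposite changes at its promoter and upstream of it. At the promoter region over the canonical TSS (chr2:47368909-47370209) the AUC was 2173 in solvent, then 2736, 2140.4 and 1823, with ratios of -0.11, -0.40 and -0.50. At 72 h 2.16% of all promoter regions were lower, and in that list the region was split into 2 peaks, of which the larger alone gave a ratio of -1.26. The region 8203 bp upstream (chr2:47360914-47361287), in an intron of a longer EPCAM transcript, was gained, with an AUC of none in solvent, then 527, 1129 and 1394. The region 11608 bp upstream (chr2:47357517-47357821) had an AUC of 325 in solvent, then 660.4, 723 and 827, with ratios of 0.58, 0.77 and 1.10. At 15.0 kb upstream (chr2:47354207-47354439) the AUC was 399 in solvent, then 654, 842 and 843, and at 13.6 kb (chr2:47355432-47355891) it was 338 in solvent, then 817, 558 and 648. Per covered base the last of these was at -0.32 at 72 h. The upstream cluster thus stood above solvent from 6 h on, while the promoter ended below it. The TSS of the longer transcript, 24.2 kb upstream, stayed within the threshold, with an AUC of 459 in solvent, then 613, 785 and 712. Of the 10 regions upstream of the promoter region with a peak in both lists, 9 were above 0 at 72 h. Most regions of the series were above 0 too, with a median of 0.15, and of 0.27 in distal regions.

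**Figure D3:**
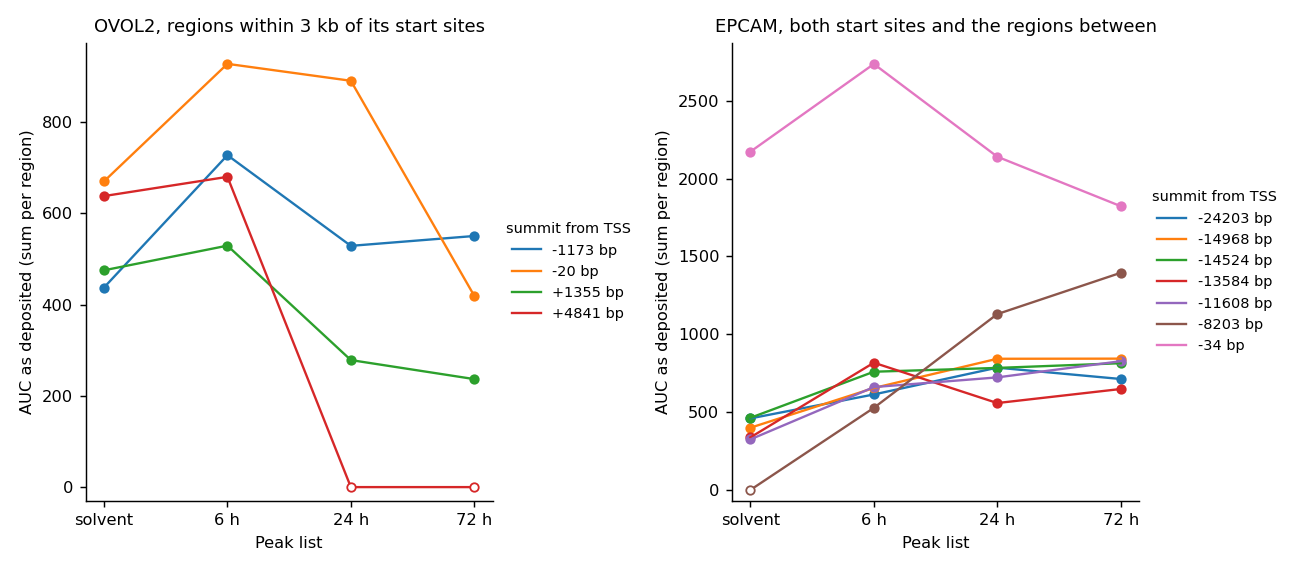
Deposited AUC per region (y axis, not scaled between lists) in each peak list (x axis) for the regions near the OVOL2 TSSs (left) and for EPCAM from its upstream to its canonical TSS (right). Lines are labelled by the distance of the summit from the canonical TSS in bp, and open points at 0 mark lists without a peak. Of the OVOL2 regions 3 ended below solvent, and the EPCAM region at -8203 bp rose to 1394 while the promoter stood at 1823.

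The summit windows of both upstream EPCAM regions are shown because they opened, and each holds an AP-1 motif, in capitals.
EPCAM gained, chr2:47361008-47361208: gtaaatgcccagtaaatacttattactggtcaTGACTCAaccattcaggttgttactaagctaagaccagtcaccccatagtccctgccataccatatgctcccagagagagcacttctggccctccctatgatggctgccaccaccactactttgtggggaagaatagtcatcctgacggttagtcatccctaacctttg
EPCAM up, chr2:47357603-47357803: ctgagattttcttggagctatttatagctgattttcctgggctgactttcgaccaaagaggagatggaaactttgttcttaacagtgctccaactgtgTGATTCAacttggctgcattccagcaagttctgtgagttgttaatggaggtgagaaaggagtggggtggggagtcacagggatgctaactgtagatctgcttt

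Sums over whole windows stood above the promoter values at 72 h, by 0.82 at OVOL2 and 0.76 at EPCAM. The summed AUC around EPCAM was 11789 in solvent, then 17411, 17291 and 16776, and its scaled log2 ratio was 0.12, 0.17 and 0.26, above 0 also under every alternative tried. RBM47 stood at 0.25, 0.21 and 0.22, GRHL2 at 0.16, 0.14 and 0.19 and GRHL3 at 0.11, 0.17 and 0.16. These windows were likewise above 0 under every alternative. The windows of OVOL1 (0.079, -0.075 and -0.23) and GRHL1 (0.000093, -0.024 and -0.11) ended lowest together with OVOL2 (0.043, -0.055 and -0.11). ESRP1 and ESRP2 were at -0.076 and -0.064 at 72 h. The windows of 18784 protein-coding genes had a median of 0.11 at 72 h and an interquartile range of -0.019 to 0.31, so that 5 of the 9 genes lay below that range and none above it. Only 2.08% of genes had a lower window ratio than OVOL1 at 72 h. Of the AUC of 9146 in that window in solvent, 3717 lay at a region over a TSS of AP5B1, another gene, and 2822 at the OVOL1 promoter region. Without scaling, all 9 window ratios at 72 h were above 0.

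Genes that act with the 9 were read at their promoters, in lists chosen with earlier results known. Of 12 epithelial genes known as targets of GRHL2 or OVOL2, 11 were below 0 at 72 h and 3 were called down, with a median of -0.37. Of all promoter regions 68.2% were below 0 and 1.47% down, with the median of -0.075 given earlier. Without scaling, 7 of the 12 were below 0 and CLDN7 alone passed 1.5-fold. The median at the same genes was -0.12 at 6 h, and -0.26 by 24 h. CLDN7, a tight junction claudin, fell furthest, with an AUC of 1879 in solvent, then 1904, 1001 and 547 and ratios of -0.42, -1.29 and -2.03. MAL2, a transcytosis protein, had an AUC of 7998 in solvent, then 8930.4, 6999.8 and 5531, and RAB25, an epithelial vesicle GTPase, had an AUC of 477 in solvent, then 554, 452 and 345. At the E-cadherin gene CDH1, the AUC was 1414 in solvent, then 1943, 1655 and 1233, within 1.5-fold of solvent. CDH3, which encodes P-cadherin, was the 1 gene of the list above 0. Of 8 genes whose transcripts ESRP1 and ESRP2 are known to splice, including FGFR2 and CD44, 6 were below 0 at 72 h (against the 68.2% of all promoter regions) and none was called, with a median of -0.091 that is near theirs. Of 7 relatives of the members, 5 had a promoter region in both lists, all below 0 at 72 h with a median of -0.093, and none was called.

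Motif shares at the summits differed between regions called up or gained and regions called down or lost, a difference that was not tested. Of the 9 regions down, 3 passed 1.5-fold down per covered base. The OVOL2 region 1355 bp downstream, counted as down with its 2 E-box positions, was at 0.66 on that scale. Motifs were sought on both strands within 100 bp of each summit as plain letters: the E-box CACCTG, the AP-1 motif TGANTCA, the grainyhead motif AACCNGTT, the SMAD palindrome GTCTAGAC and the KLF/SP box GGGCGGGG, of which different motifs overlapped in 4 of the 165 windows. AP-1 was held by 20 of the 38 regions up or gained at 72 h (52.6%, Wilson interval 37.3% to 67.5%) and by 2 of the 17 down or lost (11.8%, 3.29% to 34.3%). Among all merged regions of the series the shares were 53.4% and 14.3%. The E-box went the other way, with 8 of 38 (21.1%, 11.1% to 36.3%) and 8 of 17 (47.1%, 26.2% to 69.0%), against 14.4% and 29.0% over the series, and its 2 intervals overlapped. For both motifs the order around the 9 genes was thus that of the whole series. The GC content differed as well, at a median of 46.5% in the 38 and 51.7% in the 17, and its part in the result was not tested.

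Over all 165 regions the E-box was held by 47 (28.5%, against 17.9% of all merged regions) and AP-1 by 62 (37.6%, against 40.5%). The grainyhead motif was held by 3 (1.82%, against 1.31%), the KLF/SP box by 6 (3.64%, against 5.10%) and the SMAD palindrome by 0, against 0.295%. A match is a description of letters and not evidence of binding, and neighbouring regions of 1 gene are not independent.

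For 3 of the 9 genes, GRHL1, GRHL3 and RBM47, 7 promoter sequences of 300 bp around a TSS came from RefSeq on GRCh38.p14. The GRHL3 promoter is shown because it holds the E-box at 2 positions, in capitals, although its region stayed near solvent. Another RBM47 promoter held 1 E-box, and 20.6% of all 35116 RefSeq promoters held at least 1. The grainyhead and AP-1 motifs were in none of the 7, against 1.73% and 7.71% of all.
GRHL3 promoter, chr1:24319107-24319406, plus strand: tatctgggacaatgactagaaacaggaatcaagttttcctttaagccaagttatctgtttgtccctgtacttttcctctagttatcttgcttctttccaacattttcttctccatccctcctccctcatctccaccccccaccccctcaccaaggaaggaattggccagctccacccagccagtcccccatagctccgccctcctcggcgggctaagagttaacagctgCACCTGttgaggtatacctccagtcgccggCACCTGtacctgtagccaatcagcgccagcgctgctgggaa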

How the data were processed

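ATAC-seq data of 8 MCF10A libraries (2 per condition) were used as 4 deposited peak lists. Per the study's methods and the submitters' processing notes, the authors trimmed reads (Trimmomatic 0.38), mapped them to GRCh38 (Bowtie2 2.4.5), removed duplicates (Picard, SAMtools 1.4.1) and called peaks on both replicates together with Genrich 0.5. The deposited signal value is the AUC, a score per peak that was not scaled between lists. The deposited −log10 p of a peak, given by its caller at the summit, was used in 1 alternative. The depth reached is unknown, and Wilson intervals cover counting error only. The condition of each list came from its name.

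The 9 genes, the gene lists and the alternatives were chosen with earlier results of these data known. Peaks were merged at 1 bp, AUCs summed per region and scaled as described, with GENCODE 44 genes on GRCh38. All peaks fell within the 23 chromosomes of that build. Regions were named by rule: each gene's promoter region, its lowest and highest ratio at 72 h among regions with an AUC of at least 400 in either list, and its gained and lost region of largest AUC. Other regions were named after their values were seen. Procedures were tested on simulated lists. The tools were matplotlib 3.10.9, scipy 1.17.1, pandas 2.3.3 and numpy 2.4.6 under Python 3.11.15.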

Additional observations from a re-analysis of the deposited data

How the results depend on the processing

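No paired analysis was possible because each list pools both replicates, and for the same reason no replicate could be left out. The medians stayed within the interval of the reported median except under 2 scalings: without scaling they were 0.48, 0.42 and 0.31 at 6, 24 and 72 h, and with scaling by all regions -0.027, -0.083 and -0.082. The unscaled counts of regions up were 50, 44 and 33, with 2 down at 24 h. Scaling by all regions gave 1 down at 6 h and 7 at 24 h, and scaling by 1 kb around TSSs 2 down at 24 h. The AUC per covered base gave 7 down at 6 h and 0 at 24 h, and reversed the OVOL2 promoter at 72 h to 0.066. The −log10 p at the summit, a logarithm on which 1.5-fold is a stricter limit, gave 0 up and 0 down at each time. Peaks of an AUC of at least 400 gave 5, 5 and 10 up, 2 and 5 down at 24 and 72 h, and 0, 2 and 5 lost. Lists of equal length gave 5 down at 72 h, 6, 5 and 5 gained and 7, 14 and 22 lost. The gene body alone gave 6 up at 6 h, 10 up at 72 h, and 2 and 5 down at 24 and 72 h. Windows of 100 kb gave 36 gained at 72 h, and the nearest protein-coding TSS gave 6 up at 6 h and 17 gained at 24 h. A 2-fold limit left 1, 5 and 5 up and 2 and 4 down at 24 and 72 h. An overlap of at least 50%, which counts peaks rather than regions, gave 34 gained at 72 h and 9, 15 and 20 lost. The causes of these changes were not tested. The other 114 values of these counts and medians stayed within 1.5 times or within the interval. Among single promoter and window values, ESRP1 and EPCAM passed 1.5-fold at 72 h with scaling by all regions, at -0.60 and -0.65, the largest peak in place of the sum gave -1.26 at EPCAM and -1.20 at ESRP2, and the OVOL2 promoter had 7 values, 4 of them past 1.5-fold down.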
